A study of Mus musculus with 24 samples.

Results

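The genes described here are 39 genes of the cell cycle and of DNA replication, chosen by name from the 54232 gene rows of a count table. Each was found through its Ensembl identifier, and all 39 passed the filter on low counts. The RNA came from osteoblasts, which make bone matrix, grown in culture from the pooled skull bones (calvariae) of newborn mice. The mice were of a high bone mass line (HBM) or wild type (WT), with 3 independent pooled cultures per genotype that the labels number as batches 18, 19 and 21. RNA was taken on days 0, 10, 15 and 21 of osteoblast differentiation. This gave 8 groups of 3 libraries: HBM day 0, HBM day 10, HBM day 15, HBM day 21, WT day 0, WT day 10, WT day 15 and WT day 21. The labels give no mutation for HBM, no number or sex of the pooled animals and no agent beyond the differentiation itself. As general background, the HBM line is known for an altered propeptide cleavage site in the collagen gene Col1a1. Libraries that share a genotype and a batch number were taken as 1 culture sampled on several days, although no label says so.

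Before a cell copies its DNA, the loading factor Cdc6 helps to place rings of Mcm proteins on replication origins, and in S phase Cdc45 and the GINS complex join the rings to unwind the helix. Cyclin E and the transcription factor E2f1 act at the entry into S phase. Later, Cdk1 with the A and B cyclins, the Aurora kinases and Plk1 drive mitosis, until the ubiquitin ligase APC/C, with Cdc20 and Ube2c, lets the sister chromosomes part. In calvarial cultures, precursors divide first and then leave the cycle as they form and mineralize matrix, so these transcripts are read as signs of dividing cells.

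The libraries held 28039095 to 46987734 counts each, and a single gene of the 39 had 66 to 8610 counts in a library. Levels are given as CPM, which are counts scaled to a common library size with the TMM factors of edgeR, and 3 values in a row are those of batches 18, 19 and 21. All 11 osteoblast markers were counted in every library, and they summed to 67048 to 226154 CPM on day 21 and 43853 to 70685 CPM on day 0. Within each batch the sum was higher in HBM than in WT on days 0, 10, 15 and 21. On day 21 it was 122756 to 226154 CPM in HBM and 67048 to 139782 CPM in WT. Markers of other cells also moved with time. Macrophage markers summed to 1912 to 8963 CPM on day 21 and 43.2 to 1279 CPM on day 0, and adipocyte markers to 385 to 772 CPM and 20.00 to 49.8 CPM on those days. The adipocyte sum on day 21 was 385 to 550 CPM in HBM and 612 to 772 CPM in WT. Between days 0 and 10, 9 of 11 osteoblast markers rose and 1 fell by edgeR's quasi-likelihood test. In the same step 9 of 11 macrophage, 8 of 8 adipocyte and 4 of 8 osteoclast markers rose, and 4 of 9 cartilage markers rose while 1 fell. Over all genes, 22.3% rose and 21.9% fell. Over all libraries the sums were 146 to 725 CPM for osteoclast, 886 to 16892 CPM for cartilage, 0.54 to 7.77 CPM for endothelial and 2.56 to 14.8 CPM for skeletal muscle markers. Calcr of the osteoclast list was at 0 in all libraries of days 0 and 10, and the endothelial Tie1 at 0 in all 24. In bulk RNA, fewer cells of a type and less RNA per cell cannot be told apart. The part of these marker differences, or of the other cell types, in the results that follow was not tested.

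The time course asks how the genes of cell division change as the cultures mature. All 39 genes fell between day 0 and day 21. The same test was run on the mean change of both genotypes, with a call at an adjusted p under 0.05 over 16592 genes, and 27.4% of all genes fell in this comparison. The median log2 change of the 39 was -1.57, against -0.02 for all genes tested. Changes ranged from -2.19 for Ube2c, an enzyme of the APC/C, to -0.42 for Pcna, the replication clamp. The lists of mitosis genes had larger median changes than those of replication. The medians were -2.03 for spindle checkpoint and anaphase, -1.76 for mitotic cyclins and kinases, -1.62 for kinetochore and chromosome and -1.59 for spindle motors. For origin licensing and the helicase the median was -1.23, for S phase entry -1.23, and for the fork clamp and nucleotide supply -1.13. Whether the lists differ from each other was not tested. Without batch 18, 17 of the 39 genes passed. In the tests on both genotypes, with or without the culture block used below, the HBM and WT cultures of a batch counted as separate replicates. Their libraries of the same day deviated together from the group means (correlations of 0.620 to 0.865). These p values therefore do not fully measure the spread between independent batches.

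Summed over the 39 genes, HBM cultures had 1788, 2973 and 851 CPM on day 0, 1156, 1775 and 1117 CPM on day 10, 981, 1428 and 698 CPM on day 15 and 667, 749 and 643 CPM on day 21. WT cultures had 1560.4, 3034 and 829.9 CPM on day 0, 803, 1788 and 1116 CPM on day 10, 739.9, 1513 and 618 CPM on day 15 and 574, 844 and 564 CPM on day 21. The 6 cultures were far apart on day 0, when batch 19 was highest and batch 21 lowest in both genotypes, and close together on day 21. As means, the sum was 686 ± 55.5 CPM in HBM and 661 ± 159 CPM in WT on day 21, after 1870.4 ± 1063 CPM in HBM and 1808 ± 1123 CPM in WT on day 0 (SD, n = 3 each). In 13 genes all 6 libraries of day 21 lay below all 6 of day 0, as they did in 15.9% of the 10835 protein-coding genes with a mean above 5 CPM. In the other 26 the days overlapped. Within cultures, 37 genes were lower on day 21 than on day 0 in all 6, as were 27% of the 10835 genes. The exceptions were Cenpa and Pcna, both higher on day 21 in HBM and WT of batch 21.

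**Figure D1:**
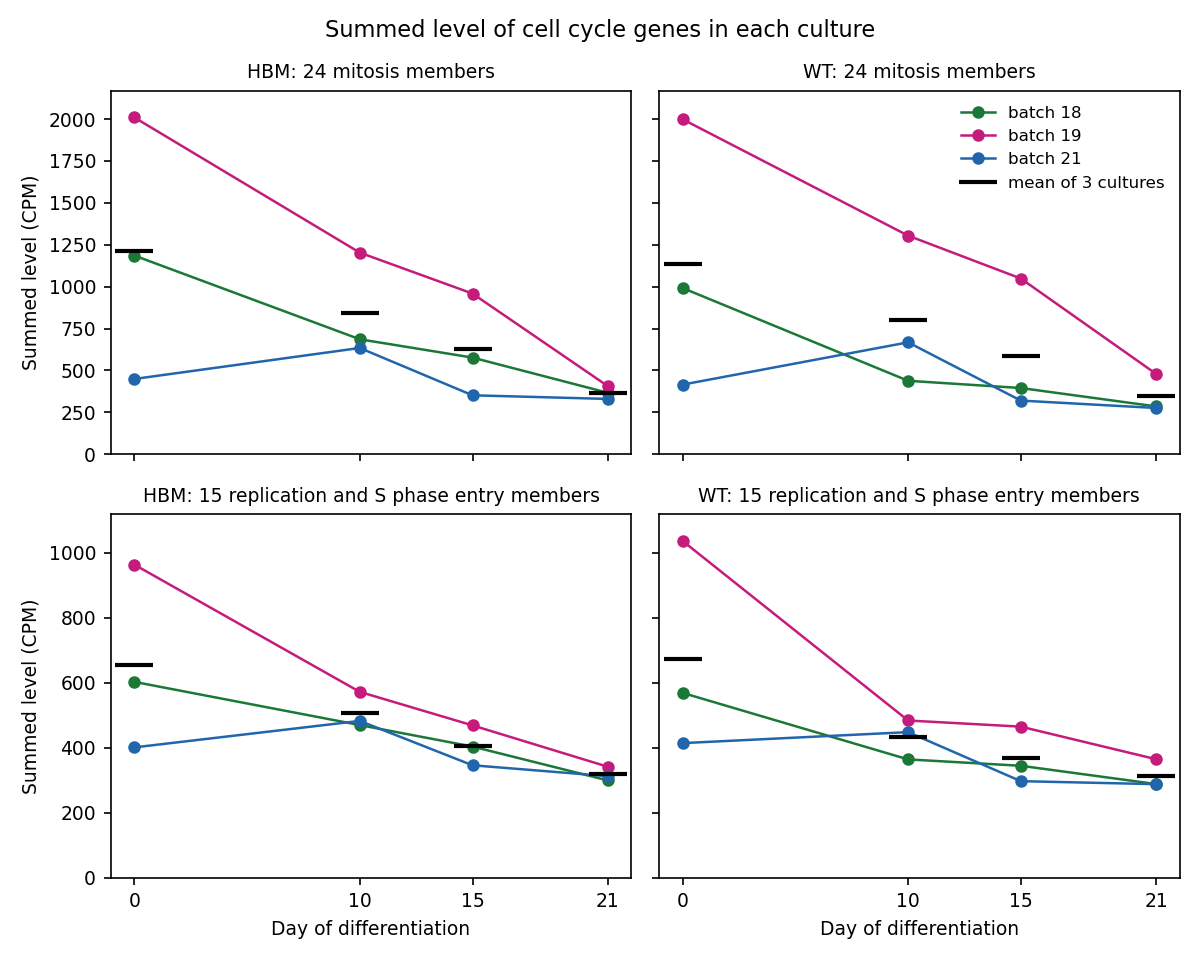
Summed CPM (y axis) of the 24 genes of mitosis (top) and the 15 genes of replication and S phase entry (bottom) by day of differentiation (x axis), in HBM cultures (left) and WT cultures (right). Points joined by a line are 1 batch and black bars the mean of 3 cultures; in batch 21 the day 10 points lie above those of day 0, and in batches 18 and 19 below them.

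From day 0 to day 10, all 39 genes had lower values, with a median log2 change of -0.50, against -0.02 for all genes tested. Of the 39, 34 were lower without WT day 0 of batch 19. By edgeR's test 4 genes fell, which were Cdc6, Mcm2, Rrm2 and Ccne1. Over all genes, 21.9% fell in this step. With each culture as a block in the fit, 9 fell (also Mcm4, Mcm5, Mcm7, Bub1 and Ube2c), against 26% of all genes. The count rested on single batches, with 0 genes without batch 18, 0 without batch 19 and 13 without batch 21. Leaving out WT day 0 of batch 21 gave 13, and leaving out HBM day 0 of batch 21 gave 12. It was 2 without any 1 of HBM day 0 of batch 19, HBM day 10 of batch 21, WT day 0 of batch 19 or WT day 10 of batch 18.

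From day 10 to day 21, all 39 genes again had lower values, with a median log2 change of -1.13, against 0.01 for all genes tested. None passed edgeR's test, in which 0.0542% of all genes fell, and 35 had an unadjusted p under 0.05. DESeq2 called 1, against 0.904% of all genes in either direction. With each culture as a block, 33 of the 39 fell, against 2.17% of all genes. This block still counted the HBM and WT cultures of a batch as separate replicates. The 6 that did not pass were Cdc45, Mcm3, Gins2, Cenpa, E2f1 and Pcna. Within cultures, 38 genes were lower on day 21 than on day 10 in all 6, as were 13.6% of the 10835 genes. Pcna was the exception, at 1.01 times its day 10 level in WT of batch 19. In 9 genes all 6 libraries of day 21 lay below all 6 of day 10, against 1.86% of the 10835.

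The shorter steps gave no calls. The median log2 change was -0.39 from day 10 to day 15 and -0.70 from day 15 to day 21, with all 39 genes lower each time. In both steps edgeR called 0 of the 39 and 0% of all genes, and DESeq2 also called 0 of the 39 and 0% of all genes. At an unadjusted p under 0.05 edgeR had 1 gene in the earlier and 2 in the later step, and DESeq2 had 1 and 7. With the culture block 20 genes had one in the earlier and 28 in the later step, and 0 passed after adjustment. In 31 genes all 6 cultures were lower on day 15 than on day 10, against 8.01% of the 10835 genes. In 25 genes all 6 were lower on day 21 than on day 15, against 8.94%.

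Each genotype alone gave few calls. From day 0 to day 10, 0 genes passed in HBM, where 12.4% of all genes fell, with 0 at an unadjusted p under 0.05 and 0 by DESeq2. DESeq2 called 30.7% of all genes there in either direction. In WT, Rrm2 and Ccne1 fell, where 14.1% of all genes did. DESeq2 called 3 in WT, against 30.8% of all genes in either direction. With the culture as a block, 1 gene fell in HBM (Rrm2), against 17.7% of all genes. In WT, 6 then fell (Cdc6, Mcm2, Mcm5, Mcm7, Rrm2 and Ccne1), against 18.8% of all genes. The WT count moved whenever a library or batch was left out, between 0 (without day 0 or day 10 of batch 19, or without either whole batch 18 or 19) and 10 (without day 0 of batch 21). It was 1 without day 0 of batch 18, day 10 of batch 18 or day 10 of batch 21, and 5 without batch 21. The HBM count was 1 without day 0 of batch 21. From day 10 to day 21, edgeR called 0 in HBM and 0 in WT, with or without the block. Of all genes it called 0% in each genotype without the block. With the block it called 0.0964% in HBM and 0.554% in WT.

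**Figure D2:**
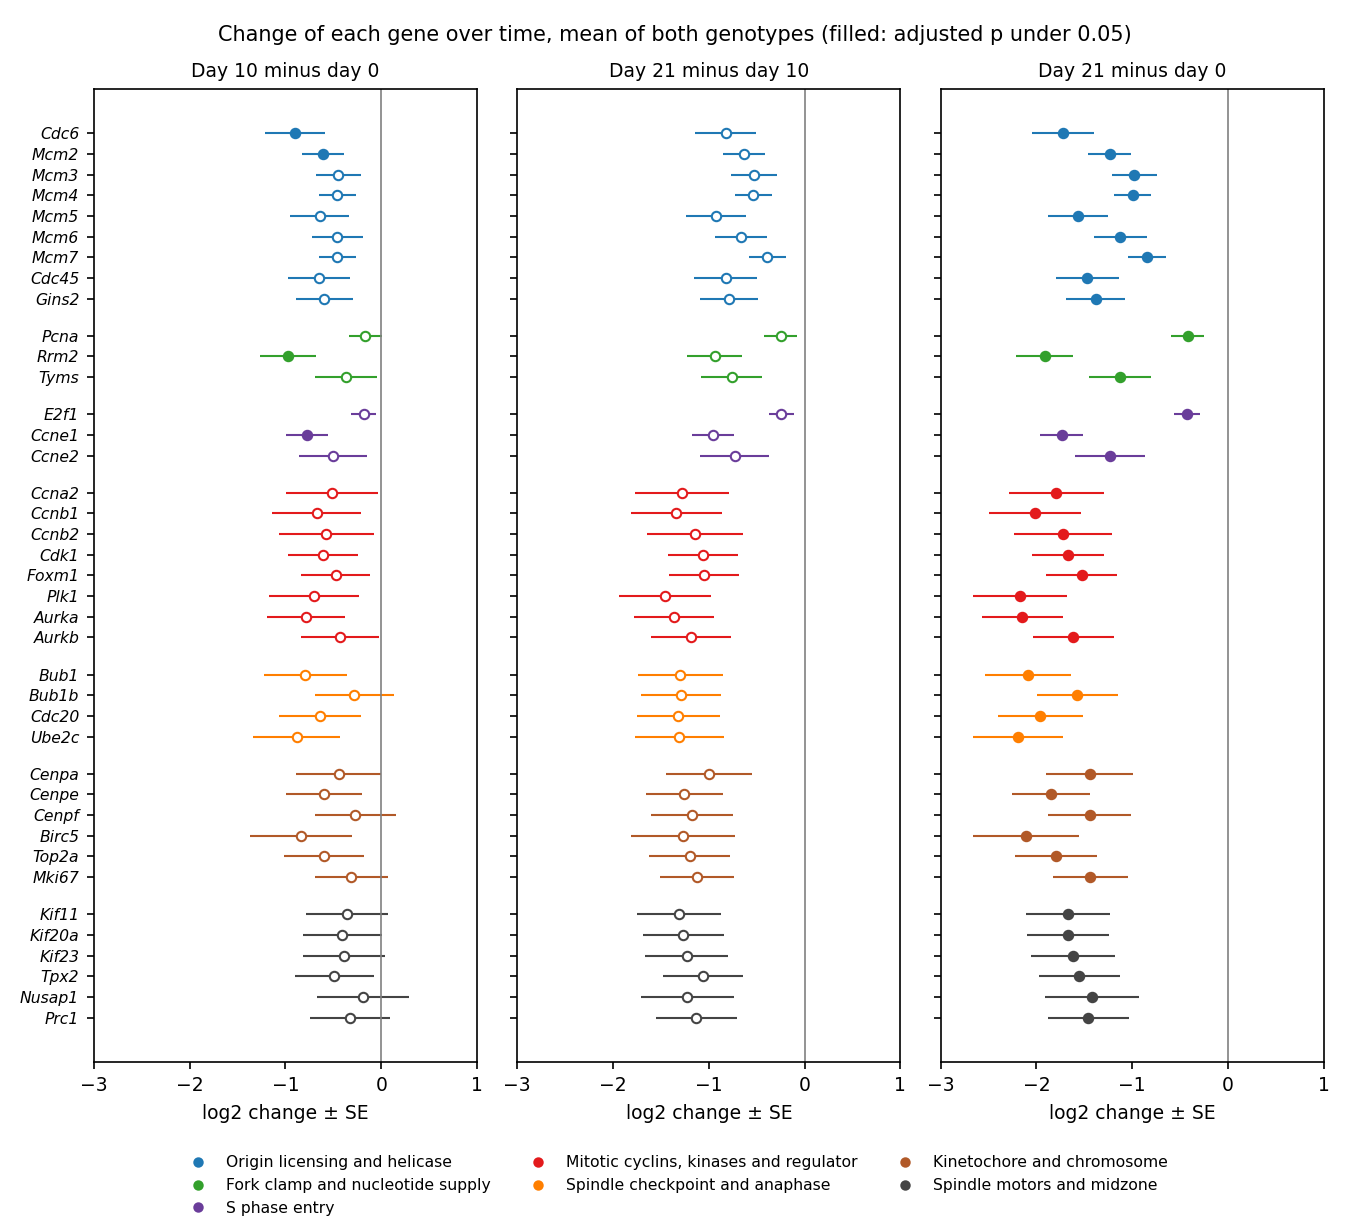
Log2 change (x axis, with its SE) of each of the 39 genes (y axis, coloured by list) as the mean of both genotypes, for day 10 minus day 0 (left), day 21 minus day 10 (middle) and day 21 minus day 0 (right). Filled points passed the test without a block: 4 on the left, none in the middle and all 39 on the right, where the values lie between -2.19 and -0.42.

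The promoters of these genes were read for motifs because the genes moved together over time. They come from RefSeq (GRCm38.p6) and span 250 bases before to 50 after the annotated start. Of the 39 genes, 31 matched an entry, and Mcm4, Gins2, Ccne2, Ccna2, Foxm1, Aurkb, Kif20a and Tpx2 did not. Both strands were searched for the E2F motif (TTTGGCGC, TTTGCCGC, TTTCGCGC or TTTCCCGC), the cell cycle homology region CHR (TTTGAA or TTCGAA) and the CCAAT box (CCAAT). Matches that overlapped were counted each and are shown as 1 run of capitals. An E2F match was found for 5 of 12 replication and S phase genes, for 1 of 19 mitosis genes and in 2.26% of all 32851 promoters. A CHR together with a CCAAT box was found for 15 of the 19 mitosis genes (78.9%). This pair was found for 3 of the 12 replication and S phase genes (25.0%) and in 7.52% of all promoters. Mcm7 and Prc1, with more than 1 promoter, were counted once by gene, while the shares of all promoters are per promoter. A match describes these letters only, and binding was not measured.

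Shown are the 160 bases before the RefSeq start of 6 genes, picked as examples after their matches were seen. Mcm5 and Mcm6 of the helicase hold E2F matches, Cdk1 holds all 3 motifs, and the mitosis genes Cdc20, Ube2c and Top2a hold CHR and CCAAT matches. Capitals mark the motifs on either strand, and each sequence runs 5′ to 3′ along its gene.
Mcm5, chr8:75109349-75109508, plus strand: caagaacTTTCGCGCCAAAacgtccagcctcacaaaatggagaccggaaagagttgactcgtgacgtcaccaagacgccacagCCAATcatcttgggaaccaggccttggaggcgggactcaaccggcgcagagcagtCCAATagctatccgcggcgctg
Mcm6, chr1:128359706-128359865, minus strand: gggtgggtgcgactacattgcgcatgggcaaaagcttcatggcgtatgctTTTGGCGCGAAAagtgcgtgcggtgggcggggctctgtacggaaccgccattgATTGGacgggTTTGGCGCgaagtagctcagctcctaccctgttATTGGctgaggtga
Cdk1, chr10:69352913-69353072, minus strand: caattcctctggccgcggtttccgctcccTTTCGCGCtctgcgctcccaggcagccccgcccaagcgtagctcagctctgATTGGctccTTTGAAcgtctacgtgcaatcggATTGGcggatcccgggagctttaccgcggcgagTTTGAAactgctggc
Cdc20, chr4:118437344-118437503, minus strand: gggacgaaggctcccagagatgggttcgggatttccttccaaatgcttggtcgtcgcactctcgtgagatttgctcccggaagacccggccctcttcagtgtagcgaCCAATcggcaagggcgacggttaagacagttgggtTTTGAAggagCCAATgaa
Ube2c, chr2:164769769-164769928, plus strand: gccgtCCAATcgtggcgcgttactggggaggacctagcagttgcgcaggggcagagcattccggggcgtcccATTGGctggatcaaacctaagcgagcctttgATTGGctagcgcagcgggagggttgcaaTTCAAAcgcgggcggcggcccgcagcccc
Top2a, chr11:99024190-99024349, minus strand: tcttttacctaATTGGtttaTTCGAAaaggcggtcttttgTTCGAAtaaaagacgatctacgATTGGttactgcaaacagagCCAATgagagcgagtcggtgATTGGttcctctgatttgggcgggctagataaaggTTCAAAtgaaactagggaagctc

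The 9 genes of origin licensing and the helicase all fell between day 0 and day 21, with log2 changes from -1.72 to -0.85. By day 10, Cdc6 and Mcm2 had fallen, and with the culture block 5 of the 9, adding Mcm4, Mcm5 and Mcm7. Cdc6 (ENSMUSG00000017499, chr11:98907801-98923940, plus strand, build mm10) encodes the ATPase that loads the helicase. On day 0, Cdc6 had 9.31, 18.5 and 4.68 CPM in HBM and 8.63, 18.3 and 5.28 CPM in WT. On day 10, Cdc6 had 6.48, 8.05 and 5.78 CPM in HBM and 3.86, 6.16 and 4.78 CPM in WT. Afterwards Cdc6 had 5.48, 5.42 and 4.17 CPM in HBM and 3.84, 5.74 and 2.72 CPM in WT on day 15, and 2.64, 3.91 and 3.73 CPM in HBM and 2.42, 4.39 and 2.53 CPM in WT on day 21. All 6 libraries of day 21 lay below all 6 of day 0, and day 10 overlapped day 0 only through the low day 0 libraries of batch 21. The log2 change of Cdc6 was -0.90 (SE 0.32, adjusted p = 0.0268) by day 10 and -1.72 (SE 0.32, adjusted p = 0.000239) by day 21.

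Mcm2 (ENSMUSG00000002870, chr6:88883474-88898780, minus strand) encodes a subunit of the helicase ring. On day 0, Mcm2 had 52.4, 76.6 and 29.8 CPM in HBM and 50.2, 69.3 and 31.3 CPM in WT. On day 10, Mcm2 had 34, 42.2 and 35.3 CPM in HBM and 24.3, 35 and 33.8 CPM in WT. Afterwards Mcm2 had 26, 33.8 and 23.5 CPM in HBM and 22, 33.6 and 19.1 CPM in WT on day 15, and 18.9, 26 and 21 CPM in HBM and 18.3, 27.5 and 19.9 CPM in WT on day 21. All 6 day 21 libraries were below all 6 of day 0. Its log2 change was -0.60 (SE 0.22, adjusted p = 0.0322) by day 10 and -1.23 (SE 0.22, adjusted p = 0.000167) by day 21. Mcm6 (ENSMUSG00000026355, chr1:128331590-128359664, minus strand), another subunit of the ring, had the largest early p of its list. On day 0, Mcm6 had 71.1, 124 and 35.8 CPM in HBM and 60.5, 121 and 40.6 CPM in WT. On day 10, Mcm6 had 54.6, 70.8 and 51.3 CPM in HBM and 40.7, 61.4 and 51.6 CPM in WT. Afterwards Mcm6 had 43.3, 54.7 and 33.9 CPM in HBM and 35, 56.4 and 32.7 CPM in WT on day 15, and 31.2, 37.7 and 32.1 CPM in HBM and 29.6, 43.5 and 34.2 CPM in WT on day 21. Batch 19 was the highest batch on every day in both genotypes, and in batch 21 both cultures were higher on day 10 than on day 0. The change of Mcm6 was -0.46 (SE 0.27, adjusted p = 0.176) by day 10, which did not pass, and -1.12 (SE 0.27, adjusted p = 0.00211) by day 21.

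The other helicase subunits Mcm3, Mcm4, Mcm5 and Mcm7 changed by -0.98, -0.99, -1.57 and -0.85 on the log2 scale by day 21, and the helicase partners Cdc45 and Gins2 by -1.47 and -1.38. From day 10 to day 21, 6 of the 9 genes fell with the culture block and 0 without it. Counts of Mcm7, Cdc45 and Gins2 are uncertain. Each overlaps a gene on the other strand that had more counts (Cops6, Ufd1 and Gse1), and the strand setting of the counting is not known here.

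The fork clamp and nucleotide supply genes Pcna, Rrm2 and Tyms all fell by day 21, by unequal amounts. Rrm2 (ENSMUSG00000020649, chr12:24708241-24714146, plus strand) encodes the regulated subunit of ribonucleotide reductase, which makes DNA precursors. On day 0, Rrm2 had 69.7, 123 and 42.1 CPM in HBM and 67, 129 and 38.9 CPM in WT. On day 10, Rrm2 had 41.5, 54.6 and 39.8 CPM in HBM and 26.4, 42.9 and 35.6 CPM in WT. Afterwards Rrm2 had 35.2, 40.6 and 22.8 CPM in HBM and 27.6, 41.1 and 17.1 CPM in WT on day 15, and 23.5, 22.4 and 20.3 CPM in HBM and 20.4, 24.1 and 14 CPM in WT on day 21. All 6 values of day 21 lay below all 6 of day 10 and of day 0. The log2 change of Rrm2 was -0.97 (SE 0.29, adjusted p = 0.0108) by day 10 and -1.91 (SE 0.30, adjusted p = 3.84e-05) by day 21. From day 10 to day 21 it was -0.95 with the culture block (adjusted p = 0.0108).

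Pcna (ENSMUSG00000027342, chr2:132249162-132253314, minus strand), the sliding clamp that holds DNA polymerase at the fork and also serves in DNA repair, had the smallest change of the 39 by day 21. On day 0, Pcna had 68.3, 100.5 and 51.4 CPM in HBM and 67.1, 119 and 55.4 CPM in WT. On day 10, Pcna had 63.2, 82.1 and 74.6 CPM in HBM and 56.7, 65.6 and 69.4 CPM in WT. Afterwards Pcna had 61.3, 73.7 and 60.4 CPM in HBM and 55.6, 73.5 and 56.2 CPM in WT on day 15, and 49.4, 62.8 and 56 CPM in HBM and 51.2, 66.5 and 59.6 CPM in WT on day 21. The libraries of all 4 days overlapped, and in batch 21 day 21 was above day 0 in both genotypes. The log2 change of Pcna was -0.17 (SE 0.17, adjusted p = 0.447) by day 10 and -0.42 (SE 0.17, adjusted p = 0.0477) by day 21, close to the threshold. Tyms, the thymidylate synthase, changed by -1.13 (SE 0.32, adjusted p = 0.00672) by day 21.

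Among the 3 genes of S phase entry, Ccne1 changed most by day 21 and E2f1 least. Ccne1 (ENSMUSG00000002068, chr7:38097984-38107534, minus strand) encodes cyclin E1, which with Cdk2 starts S phase, and it had the smallest early p of the 39 genes. On day 0, Ccne1 had 30.7, 44.4 and 25.9 CPM in HBM and 31.9, 52.8 and 24.5 CPM in WT. On day 10, Ccne1 had 23.5, 20.4 and 27.2 CPM in HBM and 18.3, 13.3 and 21.1 CPM in WT. Afterwards Ccne1 had 17.9, 12.3 and 20.7 CPM in HBM and 16.2, 10.02 and 12.7 CPM in WT on day 15, and 12.4, 7.68 and 15.9 CPM in HBM and 10.8, 7.39 and 9.33 CPM in WT on day 21. Batch 19 was highest on day 0 and lowest on each later day, in both genotypes. Ccne1 changed by -0.78 (SE 0.22, adjusted p = 0.00754) by day 10 and -1.74 (SE 0.22, adjusted p = 5.39e-06) by day 21 on the log2 scale.

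E2f1 (ENSMUSG00000027490, chr2:154559407-154569892, minus strand) encodes the activator of S phase genes. On day 0, E2f1 had 36.9, 41.6 and 48.1 CPM in HBM and 37.6, 52.4 and 50.2 CPM in WT. On day 10, E2f1 had 34.5, 34.2 and 50.5 CPM in HBM and 37.2, 31.9 and 46.3 CPM in WT. Afterwards E2f1 had 32.1, 34.1 and 41.6 CPM in HBM and 34.6, 30.04 and 37.9 CPM in WT on day 15, and 28.6, 31.2 and 38.8 CPM in HBM and 36.6, 28 and 35.1 CPM in WT on day 21. Batch 21 had the highest HBM level on each day, and the libraries of all 4 days overlapped. Its log2 change was -0.18 (SE 0.13, adjusted p = 0.27) by day 10, without a call, and -0.43 (SE 0.13, adjusted p = 0.0111) by day 21. Ccne2, which encodes cyclin E2, changed by -1.23 (SE 0.36, adjusted p = 0.00802) by day 21. It overlaps Ints8 on the other strand, which had more counts, so its counts are uncertain.

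The 8 mitotic cyclins, kinases and the regulator Foxm1 all fell by day 21, with log2 changes from -2.17 to -1.53, and 0 passed by day 10. From day 10 to day 21 all 8 fell with the culture block and 0 without it. Aurka (ENSMUSG00000027496, chr2:172356190-172370535, minus strand) encodes Aurora A, the kinase of centrosomes and spindle poles. On day 0, Aurka had 25.8, 46.3 and 9.76 CPM in HBM and 22.5, 56.4 and 9.2 CPM in WT. On day 10, Aurka had 13.8, 23.8 and 15 CPM in HBM and 8.7, 23.7 and 13.9 CPM in WT. Afterwards Aurka had 12, 16.6 and 7.14 CPM in HBM and 8.74, 18.4 and 6.74 CPM in WT on day 15, and 6.76, 6.96 and 7.08 CPM in HBM and 5.66, 7.04 and 4.93 CPM in WT on day 21. On day 21 the 6 cultures lay close together, below every library of days 0 and 10, although day 0 had spread widely between batches. The log2 change of Aurka was -0.78 (SE 0.41, adjusted p = 0.125) by day 10 and -2.15 (SE 0.42, adjusted p = 0.000375) by day 21.

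Aurkb (ENSMUSG00000020897, chr11:69045647-69051664, plus strand) encodes Aurora B, the kinase of the chromosomal passenger complex. On day 0, Aurkb had 20.9, 33.6 and 9.72 CPM in HBM and 18.7, 46.2 and 7.65 CPM in WT. On day 10, Aurkb had 15.6, 25 and 13.8 CPM in HBM and 10.3, 23.6 and 13.3 CPM in WT. Afterwards Aurkb had 13.6, 20.5 and 6.7 CPM in HBM and 7.6, 20.5 and 6.43 CPM in WT on day 15, and 7.25, 7.79 and 6.47 CPM in HBM and 6.5, 10.3 and 6.24 CPM in WT on day 21. The day 0 libraries of batch 21 were the lowest of their day in both genotypes and near the level of day 21. Its log2 change was -0.43 (SE 0.41, adjusted p = 0.412) by day 10 and -1.62 (SE 0.42, adjusted p = 0.00356) by day 21. Cdk1, the kinase that triggers mitosis, changed by -1.67 (SE 0.37, adjusted p = 0.00107) by day 21. Foxm1, a transcription factor of mitotic genes, changed by -1.53 (SE 0.37, adjusted p = 0.00212), and Plk1, which acts from mitotic entry to exit, by -2.17 (SE 0.49, adjusted p = 0.0012). The cyclins Ccna2, Ccnb1 and Ccnb2 changed by -1.79, -2.01 and -1.72.

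All 4 genes of the spindle checkpoint and anaphase fell by day 21, and this list had the largest median change of the 7. Ube2c (ENSMUSG00000001403, chr2:164769898-164778822, plus strand) encodes the enzyme that brings ubiquitin to the APC/C. On day 0, Ube2c had 28.3, 54.3 and 11.7 CPM in HBM and 27.8, 94.3 and 10.9 CPM in WT. On day 10, Ube2c had 18.7, 30.01 and 16.2 CPM in HBM and 11.8, 29 and 16 CPM in WT. Afterwards Ube2c had 14.3, 21.7 and 8.65 CPM in HBM and 9.02, 24.9 and 7.43 CPM in WT on day 15, and 8.84, 10.1 and 7.22 CPM in HBM and 6.77, 9.42 and 6.76 CPM in WT on day 21. The WT day 0 library of batch 19 stood out as the highest, and all 6 values of day 21 lay below those of days 0 and 10. The log2 change of Ube2c was -0.88 (SE 0.45, adjusted p = 0.123) by day 10 and -2.19 (SE 0.47, adjusted p = 0.00083) by day 21. With the culture block the early change passed, at an adjusted p of 0.0498.

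Bub1b (ENSMUSG00000040084, chr2:118598211-118641591, plus strand) encodes BubR1, which holds back the APC/C in the checkpoint. On day 0, Bub1b had 40.5, 68.4 and 15.9 CPM in HBM and 33.9, 58.9 and 13.4 CPM in WT. On day 10, Bub1b had 25.1, 44.3 and 25.2 CPM in HBM and 17.1, 53.4 and 24.5 CPM in WT. Afterwards Bub1b had 19.8, 34.6 and 13 CPM in HBM and 14.7, 40.7 and 12 CPM in WT on day 15, and 12.6, 14.1 and 12 CPM in HBM and 10.4, 17.6 and 10.8 CPM in WT on day 21. In batch 21 it was higher on day 10 than on day 0 in both genotypes, and day 21 overlapped the day 0 values of that batch. The change of Bub1b was -0.28 (SE 0.41, adjusted p = 0.605) by day 10 and -1.57 (SE 0.42, adjusted p = 0.00445) by day 21. Bub1, a checkpoint kinase at kinetochores, changed by -2.09 (SE 0.45, adjusted p = 0.00081) by day 21, and Cdc20, the activator of the APC/C, by -1.96 (SE 0.44, adjusted p = 0.00122). Cdc20 overlaps Elovl1 on the other strand, which had more counts, so its counts are uncertain.

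The kinetochore and chromosome list held Mki67, the gene of the proliferation antigen Ki-67, and Top2a, the topoisomerase that untangles sister DNA. All 6 fell by day 21, 0 by day 10, and 5 of 6 from day 10 to day 21 with the culture block, without Cenpa. Mki67 lies at chr7:135689784-135716361, minus strand (ENSMUSG00000031004). On day 0, Mki67 had 128, 211 and 59.1 CPM in HBM and 85.3, 119 and 48.3 CPM in WT. On day 10, Mki67 had 68, 125 and 62.1 CPM in HBM and 42.3, 134 and 78.5 CPM in WT. Afterwards Mki67 had 55, 107 and 38.6 CPM in HBM and 39.7, 103 and 29.9 CPM in WT on day 15, and 35.8, 46.3 and 35.8 CPM in HBM and 25.8, 54.6 and 35.9 CPM in WT on day 21. The WT culture of batch 19 was higher on day 10 than on day 0, and HBM exceeded WT in every batch on day 0. For Mki67 the log2 change was -0.31 (SE 0.38, adjusted p = 0.529) by day 10 and -1.44 (SE 0.39, adjusted p = 0.00467) by day 21.

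Top2a lies at chr11:98992943-99024189, minus strand (ENSMUSG00000020914). On day 0, Top2a had 146, 224 and 49.3 CPM in HBM and 119, 176 and 50.03 CPM in WT. On day 10, Top2a had 68.1, 122 and 63.2 CPM in HBM and 44.4, 131 and 74.3 CPM in WT. Afterwards Top2a had 59.9, 103 and 36.6 CPM in HBM and 42.2, 107 and 29.6 CPM in WT on day 15, and 37.6, 46.6 and 32.5 CPM in HBM and 25.2, 53.5 and 24.2 CPM in WT on day 21. Each day was lower than the one before in batches 18 and 19, while batch 21 was highest on day 10. Its log2 change was -0.60 (SE 0.42, adjusted p = 0.257) by day 10 and -1.80 (SE 0.43, adjusted p = 0.00187) by day 21. Birc5 (ENSMUSG00000017716, chr11:117849251-117855743, plus strand) encodes survivin, a chromosomal passenger protein. On day 0, Birc5 had 29.5, 58.6 and 9.03 CPM in HBM and 27, 108 and 9.2 CPM in WT. On day 10, Birc5 had 21.2, 37.6 and 16.6 CPM in HBM and 11.7, 32.4 and 14 CPM in WT. Afterwards Birc5 had 16.9, 27.9 and 8.71 CPM in HBM and 11, 31.7 and 8.14 CPM in WT on day 15, and 9.5, 9.87 and 8.46 CPM in HBM and 7.37, 13.5 and 6.21 CPM in WT on day 21. The WT day 0 library of batch 19 was again the highest. For Birc5 the log2 change was -0.84 (SE 0.53, adjusted p = 0.211) by day 10 and -2.11 (SE 0.55, adjusted p = 0.00369) by day 21.

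Cenpf (ENSMUSG00000026605, chr1:189640606-189688086, minus strand) encodes a large kinetochore protein of late G2 and mitosis. On day 0, Cenpf had 38.7, 61 and 15.7 CPM in HBM and 26.4, 37.5 and 15.4 CPM in WT. On day 10, Cenpf had 18.5, 36 and 18.4 CPM in HBM and 12.5, 47.2 and 26.3 CPM in WT. Afterwards Cenpf had 15, 33.9 and 10.3 CPM in HBM and 11.6, 36.7 and 9.15 CPM in WT on day 15, and 10.6, 15 and 11 CPM in HBM and 8.03, 16.4 and 9.33 CPM in WT on day 21. On day 10, HBM was above WT in batch 18 and below it in batches 19 and 21. The log2 change of Cenpf was -0.27 (SE 0.42, adjusted p = 0.626) by day 10 and -1.44 (SE 0.43, adjusted p = 0.00883) by day 21. Cenpe, a kinetochore motor, changed by -1.85 (SE 0.41, adjusted p = 0.000958) by day 21 and Cenpa, the histone H3 variant of centromeres, by -1.44 (SE 0.45, adjusted p = 0.012). In batch 21, Cenpa on day 21 was at 1.17 times its day 0 level in HBM and 1.42 times in WT.

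The 6 genes of spindle motors and the midzone all fell by day 21, with log2 changes between -1.67 and -1.42. By day 10, 0 passed, and from day 10 to day 21 all 6 fell with the culture block. Tpx2 (ENSMUSG00000027469, chr2:152847964-152895321, plus strand) encodes the protein that activates Aurora A on the spindle. On day 0, Tpx2 had 75.1, 122 and 25.2 CPM in HBM and 62, 124 and 25.4 CPM in WT. On day 10, Tpx2 had 43.9, 71.8 and 39.4 CPM in HBM and 29.7, 82.7 and 41.5 CPM in WT. Afterwards Tpx2 had 38.6, 57.5 and 23.3 CPM in HBM and 26.1, 66.7 and 20.5 CPM in WT on day 15, and 27.2, 28 and 22.2 CPM in HBM and 20.00, 31.8 and 19.1 CPM in WT on day 21. Batch 21 was lowest on day 0, and it was higher on day 10 than on day 0 in both genotypes. For Tpx2 the log2 change was -0.49 (SE 0.41, adjusted p = 0.349) by day 10 and -1.55 (SE 0.42, adjusted p = 0.00474) by day 21.

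Nusap1 (ENSMUSG00000027306, chr2:119618298-119651244, plus strand) encodes a protein that bundles spindle microtubules. On day 0, Nusap1 had 18.7, 33.9 and 7.93 CPM in HBM and 15.9, 38.5 and 7.12 CPM in WT. On day 10, Nusap1 had 16.3, 27.9 and 12.1 CPM in HBM and 9.35, 27.8 and 13.4 CPM in WT. Afterwards Nusap1 had 12.6, 23.9 and 6 CPM in HBM and 7.85, 26.7 and 5.26 CPM in WT on day 15, and 8.29, 8.67 and 6.65 CPM in HBM and 6.53, 10.7 and 4.79 CPM in WT on day 21. Batch 19 was highest on each day in both genotypes. Nusap1 had the largest early p of the 39 genes, with a log2 change of -0.19 (SE 0.48, adjusted p = 0.764) by day 10 and -1.42 (SE 0.49, adjusted p = 0.0208) by day 21. The mitotic kinesins Kif11, Kif20a and Kif23 changed by -1.67, -1.67 and -1.62 and the midzone protein Prc1 by -1.46 by day 21. Kif20a overlaps Cdc23 on the other strand, which had more counts, so its counts are uncertain.

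The cultures of batch 21 took another early course than those of batches 18 and 19. In batch 21 most of the genes were higher on day 10 than on day 0, with a median ratio of 1.42 in HBM and 1.46 in WT. The median ratio was 0.658 in HBM and 0.479 in WT of batch 18, and 0.589 in HBM and 0.545 in WT of batch 19. Of the 39 genes, 34 were higher in both batch 21 cultures and 37 were lower in all 4 cultures of batches 18 and 19. The exceptions to the lower values were Cenpf and Mki67, both in WT of batch 19. These are the longest of the 39 genes, at 15433 and 10061 bases of exon. In the WT day 0 library of batch 19, lower levels relative to each gene's mean went with longer exons (Spearman's rho -0.42 across the 10835 genes). The part of length in these exceptions was not tested. In 32 genes both the higher values in batch 21 and the lower values in the other batches held, against 3.91% of the 10835 genes. This contrast was picked after the levels had been seen, and it sets 2 cultures against 4. HBM and WT of a batch served as its replicates, so the p values do not measure the spread between independent batches. In edgeR's test of the difference in change, 38 of 39 genes were higher in batch 21, against 7.4% of all genes, with a median log2 difference of 1.32, against -0.05 for all genes tested. E2f1 did not pass. Without the WT day 10 library of batch 21, 25 passed.

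**Figure D3:**
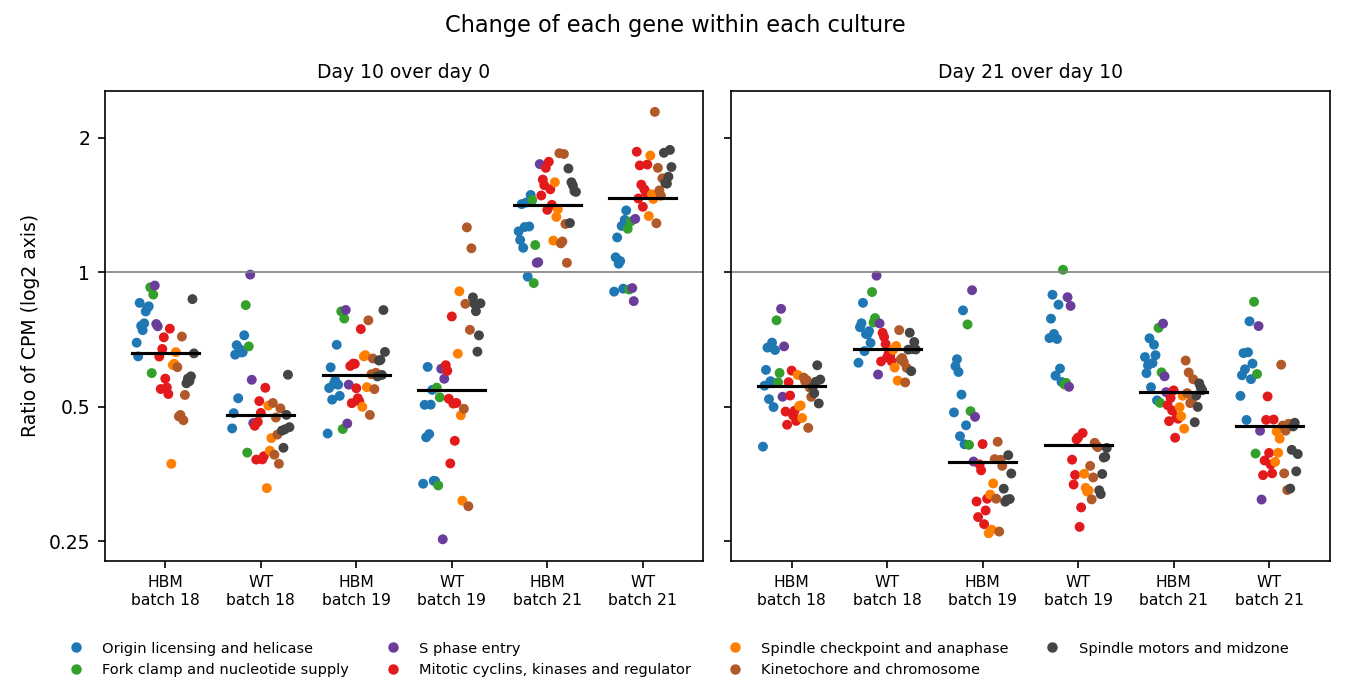
Ratio of CPM (y axis, log2 scale) of day 10 over day 0 (left) and day 21 over day 10 (right) for each of the 39 genes, as points coloured by list, in each of the 6 cultures (x axis, HBM beside WT of the same batch). Black bars are medians; on the left those of batch 21 lie above 1 (1.42 in HBM and 1.46 in WT) and those of batches 18 and 19 below it, and on the right all 6 lie below 1.

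Batch 19 had the highest and batch 21 the lowest summed level on day 0. On that day 38 genes were higher in batch 19 than in batch 21 by the same test, against 22.2% of all genes, and E2f1 did not pass. The median ratio of batch 19 to batch 21 was 4.06 on day 0, 1.84 on day 10, 2.77 on day 15 and 1.39 on day 21. On day 0 it was 4.77 for the 24 genes of mitosis and 3.1 for the 15 of replication and S phase entry. On day 10, 26 genes were higher and 2 lower (Ccne1 and E2f1), against 10.4% of all genes higher and 8.24% lower. On day 15, 37 were higher and 1 lower (Ccne1), against 11% and 7.47%. On day 21, 6 were higher (Mcm5, Mcm7, Ccne2, Ccna2, Foxm1 and Top2a) and 1 lower (Ccne1), against 5.06% and 3.8%. DESeq2 called 10 higher and 1 lower on day 21, against 6.05% and 5.21% of all genes.

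These counts compare 2 cultures of 1 batch with 2 of another, and after day 0 they rest on single libraries. On day 0, 38 genes passed with any 1 library left out. On day 10, 0 passed without HBM day 10 of batch 21, 0 without WT day 10 of batch 19, 17 without HBM day 10 of batch 19 and 14 without WT day 10 of batch 21. On day 15, 22 passed without WT day 15 of batch 19. On day 21, 0 passed without HBM day 21 of batch 21, 1 without WT day 21 of batch 19 and 2 without WT day 21 of batch 21. The day 21 count was 3 without HBM day 0 of batch 18, 4 without HBM day 10 of batch 21 or WT day 21 of batch 18, and 11 without HBM day 0 of batch 19 or WT day 0 of batch 19.

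Other measures also differed between the batches, not all in the same order. Macrophage markers summed on day 0 to 1031 CPM in HBM and 1279 CPM in WT of batch 21, against 43.2 to 121 CPM in batches 18 and 19. In the test of the difference in early change, 9 of 11 osteoblast markers and 10 of 11 macrophage markers were lower in batch 21, against 11.2% of all genes. Xist, the transcript of the inactive X chromosome, was at 0 to 0.0328 CPM in batch 21, 279 to 528 CPM in batch 18 and 18 to 246 CPM in batch 19. Their part in the differences of the cell cycle genes was not tested.

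The central comparison sets HBM against WT cultures. No cell cycle gene differed between them by test on any day. On days 0, 10, 15 and 21, edgeR called 0 of the 39 and 0% of all genes. DESeq2 called 0 of the 39 and at most 0.0121% of all genes, and 0 of the 39 had an unadjusted p under 0.05. Higher values in HBM were seen in 19 genes on day 0, 34 on day 10, 37 on day 15 and 28 on day 21. The median log2 difference was 0.16 on day 10, 0.09 on day 15 and 0.09 on day 21, against 0.00, -0.01 and -0.01 for all genes tested. On day 10 the summed level was 1349 ± 369 CPM in HBM and 1236 ± 504 CPM in WT, and on day 15 it was 1035 ± 368 CPM in HBM and 957 ± 486 CPM in WT (SD, n = 3 each). These differences were smaller than the spread between cultures. Osteoblast markers summed higher in HBM within each batch on each day, and their part in these differences was not tested.

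With the batch as a block on each day, 38 genes had higher values in HBM on day 10 and all 39 on day 15, and 0 passed. On day 10, 9 of the 39 had an unadjusted p under 0.05, and the smallest adjusted p was 0.0758, for the helicase subunit Mcm3. In that fit 1.31% of all genes passed on day 10. On day 0, 22 of the 39 had higher values in HBM and 3 had an unadjusted p under 0.05, while 0.127% of all genes passed. An unadjusted p under 0.05 was found for 3 of the 39 on day 15 and 1 on day 21, and 0.331% and 0.241% of all genes passed on those days. Counts were also summed over days 10 to 21 of each culture. With the batch block, Ccne1 was then at 1.31 times its WT level (adjusted p = 0.0533) and Ccne2 at 1.44 times (adjusted p = 0.0582). Neither passed, while 2.36% of all genes did with the block. Without the block, 0 of the 39 and 0% of all genes passed. By DESeq2, 0 of the 39 and 0.536% of all genes did. Summed over all 4 days, 0 of the 39 passed by edgeR, with or without the block, or by DESeq2. Of all genes, 0% passed by edgeR in either fit and 0.136% by DESeq2. A genotype difference in the change from day 0 to day 10 or from day 10 to day 21 was found for 0 genes by edgeR and by DESeq2, with 0 at an unadjusted p under 0.05 without a block. The median log2 difference of the early change was 0.20.

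Within batches the direction varied. In batch 18 the number of the 39 genes higher in HBM was 36 on day 0, 38 on day 10, 38 on day 15 and 35 on day 21, with median ratios of HBM to WT of 1.11, 1.5, 1.34 and 1.19 on the 4 days. In batch 19 it was 18 on day 0, 22 on day 10, 8 on day 15 and 5 on day 21, with median ratios of 0.951, 1.01, 0.926 and 0.883. In batch 21 it was 24 on day 0, 24 on day 10, 34 on day 15 and 33 on day 21, with median ratios of 1.05, 1.03, 1.11 and 1.15. Of the 10835 genes, between 45.2% (batch 18, day 15) and 54.8% (batch 21, day 0) were higher in HBM within a batch and day. On days 0, 10, 15 and 21 batch 18 had the highest median of the 3 batches. HBM was higher in all 3 batches for 11 genes on day 0, 17 on day 10, 7 on day 15 and 3 on day 21. Of the 10835 genes, 15.7%, 26%, 21.3% and 21% were higher in all 3 on those days.

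**Figure D4:**
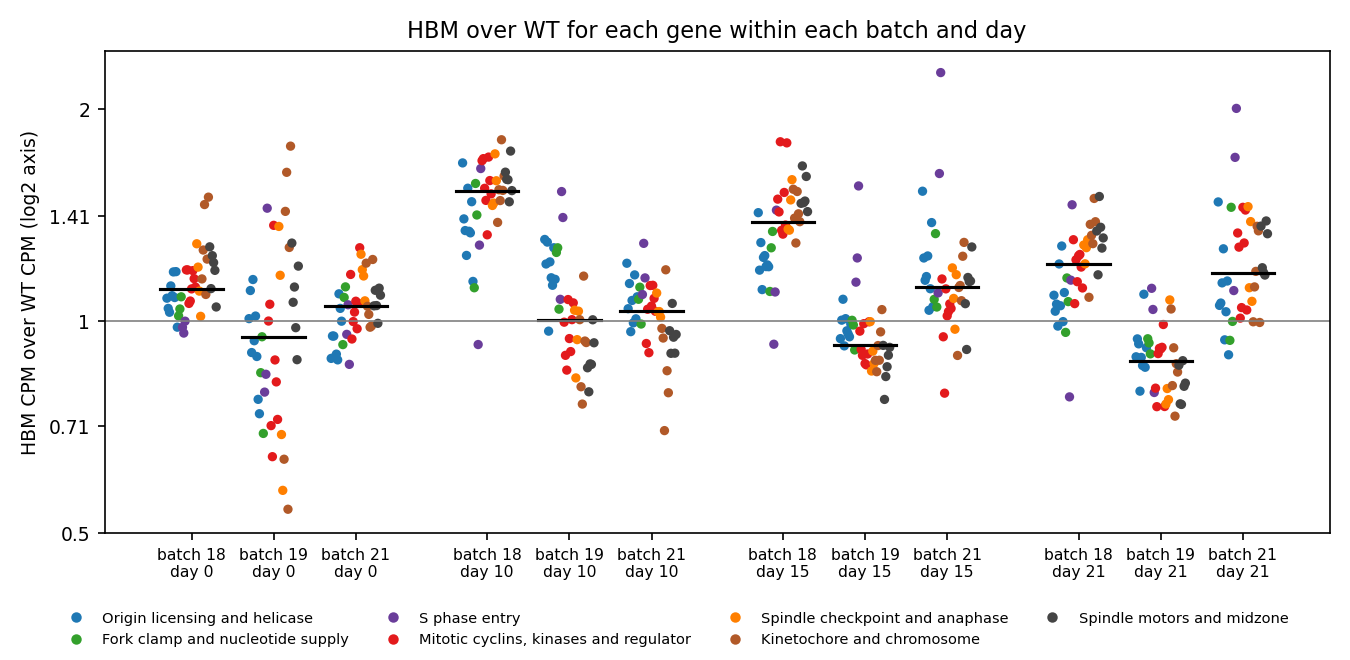
HBM CPM over WT CPM (y axis, log2 scale) of each of the 39 genes, as points coloured by list, within each batch on each day (x axis). Black bars are medians; those of batch 18 lie above 1 on all 4 days (1.5 on day 10), while those of batch 19 lie at 0.951 on day 0 and 0.883 on day 21.

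On day 0 the ratio of HBM to WT within batch 19 went with the length of the exons. The long Mki67 (10061 bases of exon) was at 1.77 times its WT level in HBM and Cenpf (15433 bases) at 1.63 times. The shorter Birc5 (3402 bases) was at 0.541 times and Ube2c (2600 bases) at 0.575 times. Of the 10 longest of the 39 genes, 8 were higher in HBM, with a median log2 ratio of 0.30, and of the 10 shortest, 0, with a median of -0.30. Spearman's rho between ratio and length in batch 19 was 0.60 across the 39 genes and 0.65 across the 10835. It was 0.49 and 0.29 in batch 18, and 0.13 and -0.08 in batch 21. These are descriptions across genes, which are not independent replicates. Across the 10835 genes, the deviation of each gene from its mean over all 24 libraries was also set against length. Its rho with length was -0.42 in the WT day 0 library of batch 19 and -0.20 to 0.21 in the other libraries. The cartilage markers summed to 9100.4 CPM in HBM and 16892 CPM in WT on day 0 of that batch, the highest sums of the series. On day 10 the rho with length was negative in each batch. It was -0.06 across the 39 genes and -0.18 across the 10835 in batch 18, -0.36 and -0.24 in batch 19, and -0.41 and -0.30 in batch 21. Of the 10 longest genes 3 were then higher in HBM of batch 19 and 2 in HBM of batch 21, and of the 10 shortest 7 and 9. In batch 18, 10 of the 10 longest and 9 of the 10 shortest were higher in HBM. The part of length or cartilage cells in the genotype differences, or of length in the changes over time, was not tested.

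**Figure D5:**
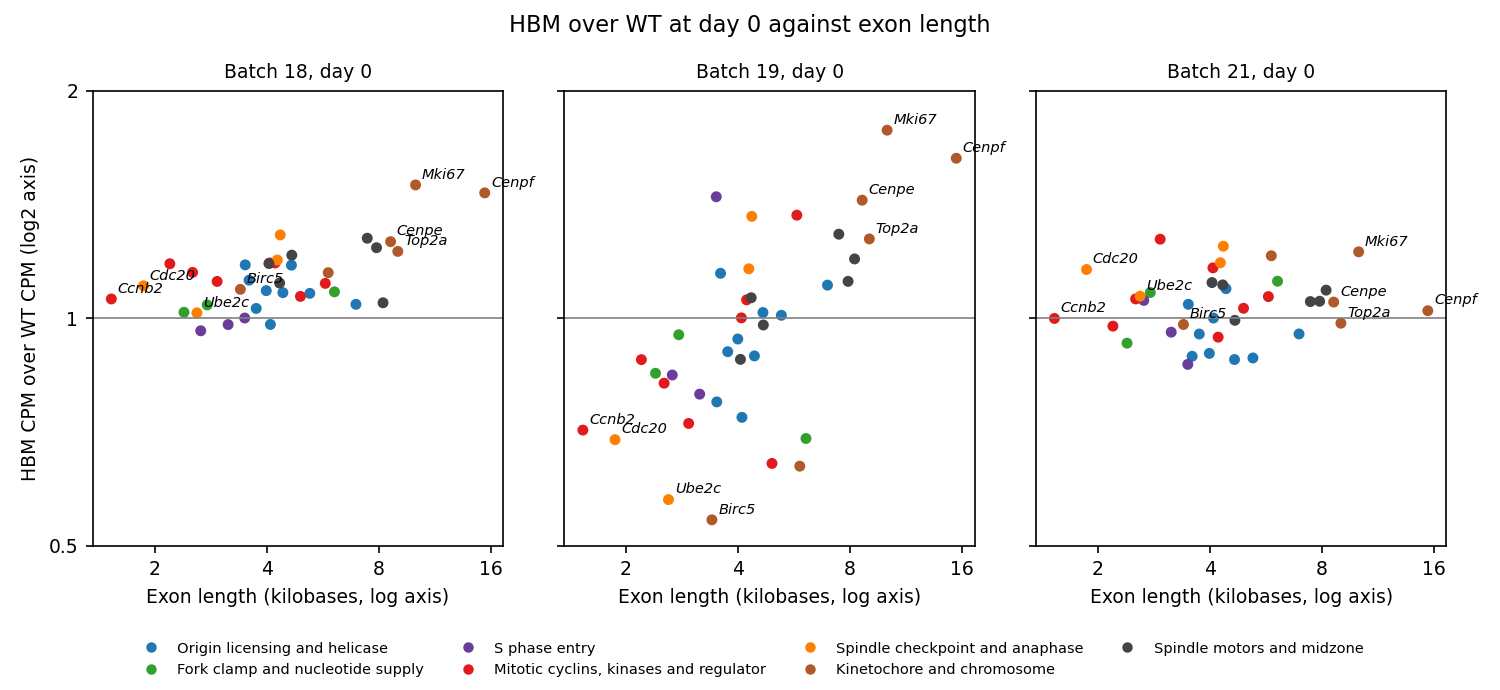
HBM CPM over WT CPM on day 0 (y axis, log2 scale) against exon length in kilobases (x axis, log scale) for the 39 genes in batch 18 (left), batch 19 (middle) and batch 21 (right), coloured by list with 8 genes named. In batch 19 the shortest 10 genes all lie below 1, and Mki67 lies highest at 1.77.

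Other genes of the cycle were counted in lists by role. Over all genes, 22.3% rose and 21.9% fell by day 10, and 26.9% rose and 27.4% fell by day 21. Of the 7 inhibitors of cyclin-dependent kinases, 1 rose from day 0 to day 10. This was Cdkn1c, which encodes p57, with a log2 change of 2.59 (adjusted p = 4.24e-05). On day 10, Cdkn1c had 169, 154 and 142 CPM in HBM and 192, 173 and 207 CPM in WT. On day 0, Cdkn1c had 19, 32.6 and 9.79 CPM in HBM and 13.8, 90.5 and 15 CPM in WT, with no overlap between the days. By day 21, 2 inhibitors rose and 2 fell. Of the 6 D cyclins and G1 kinases, 1 fell by day 10, Cdk4 at -0.28 (adjusted p = 0.0497), and 3 by day 21. Among 17 pocket proteins and further E2F factors, 4 rose and 5 fell by day 10, both shares near those of all genes. Those that rose were led by Rbl2 (p130) at 0.68 (adjusted p = 0.00287), E2f2 at 0.70 (adjusted p = 0.0183) and Tfdp2 at 0.20 (adjusted p = 0.0199). Those that fell were led by E2f6 at -0.50 (adjusted p = 6.68e-06), E2f4 at -0.60 (adjusted p = 0.000143) and Tfdp1 at -0.60 (adjusted p = 0.000451).

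Of 38 further replication genes, 9 fell by day 10, a share near that of all genes, and 31 by day 21. The smallest early p values were those of the origin recognition subunits Orc1 at -1.37 (adjusted p = 0.00253), Orc2 at -0.30 (adjusted p = 0.0034) and Orc4 at -0.42 (adjusted p = 0.00742). Of 50 further mitotic genes, 1 fell by day 10, Cks1b at -0.83 (adjusted p = 0.0104), and 48 fell by day 21. Of 11 checkpoint genes and CDC25 phosphatases, 4 fell by day 10, led by Trp53 (p53) at -0.66 (adjusted p = 8.57e-07), Wee1 at -0.42 (adjusted p = 0.00113) and Mdm2 at -1.08 (adjusted p = 0.00951), and 8 fell by day 21. Of 11 genes of histone chaperones, chromatin proteins and histone variants, Hells at -1.02 (adjusted p = 0.01) and Dnmt1 at -0.40 (adjusted p = 0.042) fell by day 10, and 10 fell by day 21. From day 10 to day 21, edgeR called 0 genes of these lists without a block. With the culture block, in which 2.17% of all genes fell, 43 of 50 further mitotic genes and 10 of 11 chromatin genes fell. So did 7 of 38 replication genes, 5 of 17 pocket and E2F genes and 1 of 11 checkpoint genes.

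Levels were compared between genes per kilobase of exon, as the mean of 6 libraries. Pcna was highest of the 39, at 24 CPM per kilobase on day 21 and 32.1 on day 0. Cdc6 was lowest, at 0.625 CPM per kilobase on day 21 and 2.06 on day 0. E2f1 stood at place 2 of 39 on day 21 and place 13 on day 0. The change of place came from batches 18 and 19. By batch, E2f1 was at places 2, 2 and 2 on day 21 and at places 12, 22 and 2 on day 0. The summed level of the 24 mitosis genes was also set over that of the 15 replication and S phase genes. On day 21 this ratio was 1.23, 1.19 and 1.06 in HBM and 0.99, 1.32 and 0.959 in WT. On day 0 it was 1.97, 2.09 and 1.12 in HBM and 1.74, 1.93 and 1 in WT. The ratio was lower on day 21 than on day 0 in all 6 cultures, by more in batches 18 and 19 than in batch 21.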

How the data were processed

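Libraries of polyA RNA from cultured calvarial osteoblasts were sequenced in 24 libraries, in 8 groups of 3. The submitters' processing notes name, without their roles, the tools cutadapt 3.4, STAR 2.7.8a and featureCounts (Subread 2.0.1) and the build mm10. Neither the annotation release nor the strand setting is known here. The authors deposited whole-number counts per gene, per the file headers, with 28039095 to 46987734 counts per library. GENCODE M21 gave symbols and positions for 54164 of 54232 rows; the other 68 held at most 0.00337% of a library's counts and stayed in the tests.

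Changes over time and between genotypes came from 1 model of the 8 groups (edgeR 4.0.16 in R 4.3.3, quasi-likelihood test, TMM, filterByExpr, 16592 genes), and sums over days from a model of 6 sums. Comparisons between batches came from another edgeR model, with a term for each batch and day and an HBM minus WT term for each day. In that model the HBM and WT cultures of a batch served as its replicates. Adjusted p values are Benjamini-Hochberg over all genes, with a threshold of 0.05. The steps were tested on simulated counts. Alternatives were DESeq2 1.42.0, its size factors, no filter, each library or batch left out, and replicate blocks. 14 of the 39 genes overlap a gene on the other strand, and the 6 whose neighbour had more counts are named as uncertain.

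Values in every library are given for Mki67, Top2a and, in each of 7 role lists, the genes with the smallest and the largest p from day 0 to day 10, and for Mcm2 as 1 of the 4 that passed. Genes, lists and contrasts were chosen with earlier results of these data known, and the comparisons of day 21 with day 0 and between batches were added after the data were seen. Pairing by batch number was checked: deviations from group means correlated at 0.620 to 0.865 between HBM and WT libraries of the same batch and day (12 pairs), against -0.749 to 0.177 between batches (24 pairs). For the culture block, libraries of 1 genotype and batch correlated at 0.443 to 0.873 between later days (18 pairs), against -0.691 to -0.0758 between batches (36 pairs). Between day 0 and a later day they correlated at -0.0799 to 0.462 (18 pairs), against -0.445 to 0.158 (36 pairs), so there the pairing rests on the batch label. HBM and WT libraries, which are different cultures, also correlated within a batch, so this check cannot show that 1 culture was sampled again. Deviations within a group cancel, so the negative values between batches follow in part from the positive ones within them. Results with a block are given where they change a call. The labels call the cultures independent and pooled. The fewest counts of a gene in a library were 66.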

Additional observations from a re-analysis of the deposited data

Results flagged for a closer look

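The change from day 0 to day 10 differed between batches: in edgeR's quasi-likelihood test of the difference, 38 of the 39 genes changed in another way in batch 21 than in batches 18 and 19, with a median log2 difference of 1.32. The result was flagged because the change differed between groups of cultures. The groups are batches noticed in the data, and the contrast was picked after the levels had been seen. The test is therefore not independent support for the difference. The cause of the difference was not tested.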

How the results depend on the processing

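Of 402 counts of called genes under other settings, 361 stayed within 1.5 times the count reported and 41 moved. Of 5889 values of single genes, for the changes from day 0 to day 10 and to day 21, HBM minus WT and batch 19 minus batch 21 on day 0 and the differences in early change, 5733 kept their side of the threshold, 49 passed newly, 107 lost their call and 0 reversed. For day 10 minus day 0, the count for both genotypes was 4 and became 9 with the replicate block, that for WT was 2 and became 6 with the block, 3 by DESeq2 and 1 without the filter, and that for HBM was 0 and became 1 with the block. For day 21 minus day 10 in both genotypes, 0 became 33 with the block and 1 by DESeq2. For batch 19 minus batch 21 on day 21, 7 became 11 by DESeq2. Leaving out 1 library or batch gave 0 to 13 for day 10 minus day 0 in both genotypes, 0 to 10 in WT and 0 to 1 in HBM, 17 to 39 for day 21 minus day 0, 25 to 38 for batch 21 against batches 18 and 19, and for batch 19 against batch 21 0 to 30 on day 10, 22 to 39 on day 15 and 0 to 11 on day 21. HBM minus WT and the genotype differences in change stayed at 0 members under every setting run, blocks included. The blocks changed no other count by more than 1.5 times. The cause of these shifts was not tested. Each of the 39 genes had at least 66 counts in each library.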
